A study of Cornus officinalis with 7 samples.

Results

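A set of 7 unigenes was described in *Cornus officinalis*, a deciduous tree whose fruit is used in traditional medicine. They are annotated to 4 enzymes on the path from central carbon metabolism to gallic acid and its first glucose ester. By the enzyme names of the study, which rest on sequence similarity to proteins of other species, 2 of the 7 encode 3-deoxy-D-arabinoheptulosonate 7-phosphate synthase (DAHPS), 2 encode 3-dehydroquinate synthase (DHQS), 2 encode dehydroquinate dehydratase/shikimate dehydrogenase (DHQ-SDH) and 1 encodes gallate glucosyltransferase (GGT). They belong to the 37 unigenes that the study annotated to these 4 enzymes, among 304371 assembled unigenes. The 7 were chosen with their expression in leaf and seed known, so the leaf and seed values below describe the unigenes and test nothing.

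The RNA came from leaf and stem, each sampled young and mature, from the pericarp and seed of the fruit, and from the inflorescence. All 7 tissues carry the same plant material label and an age of 12 years. No treatment was applied, and 1 strand-specific library was sequenced per tissue. Without replicates, no difference between tissues has an error or a p-value, and no neighbours in an order of tissues can be told apart by their spread. Expression is given as FPKM, fragments scaled to the length of the unigene and to the mapped fragments of the library, which allows levels to be compared between unigenes. In whole tissues, fewer cells of a type and less RNA per cell cannot be told apart.

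The shikimate pathway leads from sugar metabolism to the aromatic amino acids, and through phenylalanine to lignin and flavonoids. DAHPS joins phosphoenolpyruvate with erythrose 4-phosphate, DHQS closes the ring to 3-dehydroquinate, and the bifunctional DHQ-SDH removes water to give 3-dehydroshikimate and then reduces it to shikimate. Gallic acid leaves the pathway at 3-dehydroshikimate, and in grapevine and eucalyptus separate copies of DHQ-SDH differ in how far they make shikimate or gallate. GGT then adds glucose to gallate, giving 1-*O*-galloyl-β-D-glucose, from which gallotannins are built.

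The libraries were similar in total but not in content. The FPKM of each library summed to 876794 (young stem, the lowest) up to 992186 (mature stem). FPKM keeps no read counts, and the number of fragments behind a value is unknown, but the smallest steps in the values give the relative depth. Compared with seed, 1 fragment was worth 1.07 times the FPKM in young leaf and 1.08 times in mature leaf, so the tissues compared most closely here were of nearly equal depth. It was worth 0.938 times in young stem, 1.38 times in pericarp and 1.63 times in inflorescence. Mature stem stood apart from the other libraries. A total of 94.7% of its summed FPKM lay on unigenes near-exclusive to it, with less than 1% of that FPKM in any other tissue, against 9.01% in seed and 0.829% in mature leaf. All 7 unigenes were above 0 in the other 6 tissues, whereas in mature stem 3 were listed at 0 and the other 4 lay between 0.11 and 0.32 FPKM. An FPKM of 0 can be a failed estimate, so it is called listed at 0. Orders and ratios below are therefore given over the 6 other tissues, and mature stem is named where it was included. No markers of leaf or seed are paired with unigenes in the lists used, so the tissue labels were not checked against markers.

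DAHPS, the entry enzyme, had 1 unigene that was highest in the leaves and 1 that was highest in seed but also abundant in leaf and young stem. Unigene085665 had an FPKM of 252.18 in young leaf and 230.07 in mature leaf, then 78.44 in young stem, 76.94 in inflorescence, 41.15 in seed and 12.18 in pericarp, and was listed at 0 in mature stem. Both leaf stages thus stood well above every other tissue, and the fruit held the lowest values. Young leaf exceeded seed 6.13-fold and mature leaf exceeded it 5.59-fold. Unigene070183 had 655.44 in seed, 235.34 in young leaf, 234.25 in young stem, 173.94 in mature leaf, 88.73 in pericarp, 79.09 in inflorescence and 0.32 in mature stem. It was the most abundant unigene of the 37 in any tissue and ranked 86th among all unigenes of the seed library. Seed exceeded young leaf 2.79-fold and mature leaf 3.77-fold. In the leaves the 2 copies had nearly the same level, since Unigene085665 was at 1.07 times Unigene070183 in young leaf and 1.32 times in mature leaf. In seed Unigene070183 was 15.9 times Unigene085665, and in pericarp 7.28 times.

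At the second step, DHQS, a single unigene held nearly all of the expression. Unigene252093 had an FPKM of 165.3 in seed, then 138.51 in mature leaf and 134.12 in young leaf, followed by 102.65 in young stem, 66.78 in pericarp and 59.94 in inflorescence, with 0.21 in mature stem. Its highest and lowest values outside mature stem differed 2.76-fold. In the deposited FPKM seed was 1.23 times young leaf and 1.19 times mature leaf, but under another scaling of the libraries, described below, the log2 difference of mature leaf minus seed went from -0.25 to 0.05, so no order is given for these 3 tissues. Unigene241334 was much lower, with 5.55 in inflorescence, 4.98 in young leaf and 3.98 in mature leaf, then 2.79 in pericarp, 2.51 in young stem and 0.61 in seed, and was listed at 0 in mature stem. Young leaf exceeded seed 8.16-fold and mature leaf 6.52-fold for this copy. These folds rest on a low value in seed, with an unknown number of fragments behind it, and are less certain than those of the abundant unigenes. Even where it was highest, in inflorescence, Unigene241334 held 8.03% of the summed FPKM of the 9 DHQS unigenes. Unigene252093 held 92.2% in young leaf, 95.2% in mature leaf and 96.8% in seed.

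DHQ-SDH, the step at which gallate branches off, held the single unigene with the widest contrast between leaf and seed among the 7. Unigene173474 had an FPKM of 309.71 in young leaf and 264.52 in mature leaf, then 92.06 in inflorescence, 83.22 in young stem, 23.87 in pericarp and 5.29 in seed, and was listed at 0 in mature stem. Young leaf exceeded seed 58.5-fold and mature leaf exceeded it 50.0-fold. Unigene107206 had 82.35 in seed, 51.88 in inflorescence and 47.67 in young stem, then 46.09 in young leaf and 41.27 in mature leaf, with 34.27 in pericarp and 0.17 in mature stem. It varied 2.40-fold outside mature stem, with seed 1.79-fold above young leaf and mature leaf at 0.501 times seed. Unigene173474 was thus at 6.72 times Unigene107206 in young leaf and 6.41 times in mature leaf, while in seed Unigene107206 was 15.6 times Unigene173474.

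GGT, the last step, was low in seed. Unigene281485 had an FPKM of 223.86 in mature leaf and 180.44 in young leaf, then 72.85 in inflorescence, 51.07 in young stem, 25.21 in pericarp, 6.16 in seed and 0.11 in mature stem. Mature leaf exceeded seed 36.3-fold and young leaf 29.3-fold. In the deposited FPKM, young leaf was at 0.806 times mature leaf for this unigene. No other of the 7 was higher in mature leaf by more than a few percent there. Under the other scaling, described below, mature leaf also exceeded young leaf for 3 more, as log2 differences from seed. These were Unigene252093 (0.05 against -0.23), Unigene085665 (2.75 against 2.66) and Unigene107206 (-0.69 against -0.75). Neither of the 2 listed GGT unigenes was highest in seed. The second, Unigene284429, had 133.74 in inflorescence, 98.42 in mature leaf and 87.4 in young leaf, then 50.55 in young stem, 32.89 in pericarp and 9.67 in seed, and was listed at 0 in mature stem. It too was low in seed, but it led GGT in inflorescence, with 64.7% of the summed FPKM, whereas Unigene281485 led in the leaves, with 67.4% in young leaf and 69.5% in mature leaf.

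**Figure D1:**
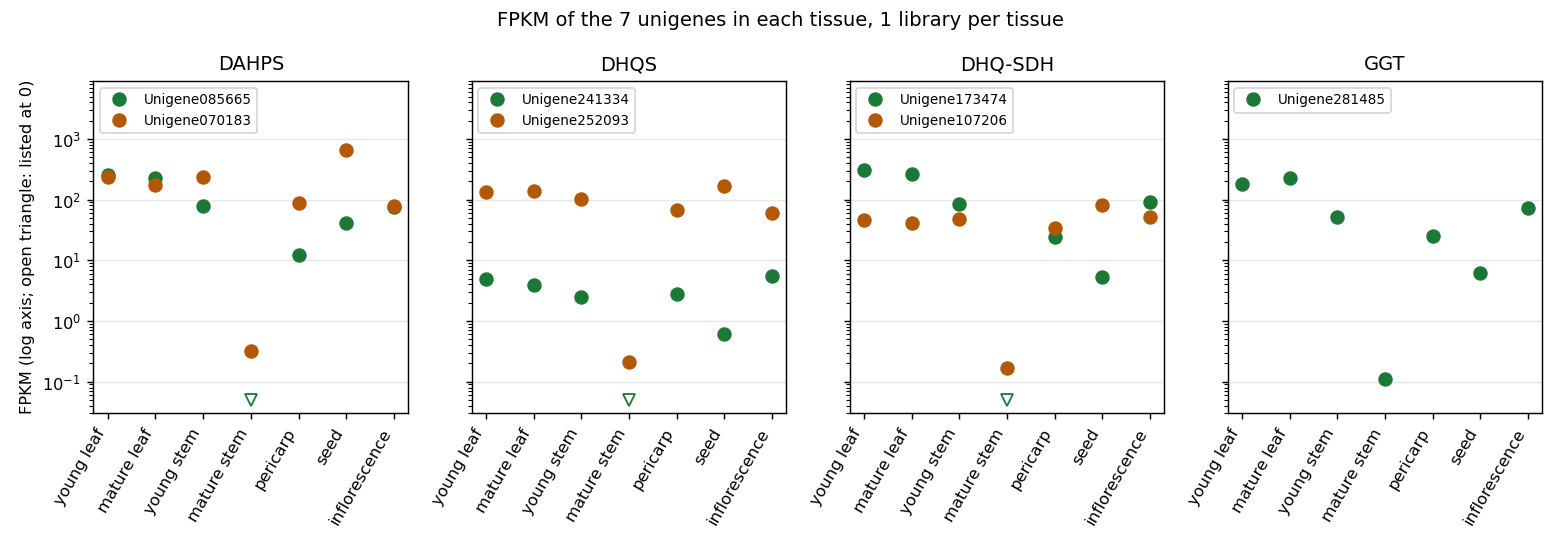
FPKM (log axis) of each of the 7 unigenes in the 7 tissues, 1 library per point, in 1 panel per enzyme. Open triangles mark unigenes listed at 0. The unigenes in green are at least 2-fold higher in both leaf libraries than in seed on the log2(FPKM + 1) scale. Of those in orange, Unigene070183 and Unigene107206 are highest in seed, at 655.44 and 82.35 FPKM. The order of leaf and seed for Unigene252093 depends on the scaling (mature leaf minus seed -0.25 as deposited and 0.05 under median-ratio scaling, log2).

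On the log2(FPKM + 1) scale, 4 of the 7 unigenes (Unigene085665, Unigene241334, Unigene173474 and Unigene281485) were at least 2-fold higher in both leaf libraries than in seed, and 1, Unigene070183, was at least 2-fold higher in seed. Among the 132941 unigenes that reached an FPKM of 1 in young leaf, mature leaf or seed, 9.52% passed in the first direction and 23.0% in the second. Nothing is read from these shares, because the unigenes were chosen on the same values. Unigene252093 and Unigene107206 passed in neither direction, with Unigene107206 close to the limit, at a log2 difference of -0.82 for young leaf minus seed and -0.98 for mature leaf minus seed. The largest log2 differences were those of Unigene173474, at 5.63 and 5.40 for young and mature leaf, and of Unigene281485, at 4.66 and 4.97. When libraries were scaled instead by the median ratio over 5988 unigenes that reached an FPKM of 10 in each of the 6 tissues, the median of all tested unigenes shifted by 0.19 for mature leaf minus seed and by 0.05 for young leaf minus seed. The log2 factors themselves were 0.30 and 0.07. Abundant unigenes move by nearly the full factor, while the pseudocount damps the shift of low ones. Under this scaling the mature leaf difference of Unigene252093 went from -0.25 to 0.05 while its young leaf difference was -0.23, so no direction is given for it.

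The ratio of 2 unigenes within a library does not depend on how libraries are scaled. For DHQ-SDH the ratio of Unigene173474 to Unigene107206 was 105 times higher in young leaf than in seed, and 99.8 times higher in mature leaf. For DAHPS the ratio of Unigene085665 to Unigene070183 was 17.1 times higher in young leaf and 21.1 times higher in mature leaf than in seed. For DHQS the ratio of Unigene241334 to Unigene252093 was 10.1 and 7.79 times higher. For the GGT unigenes Unigene281485 and Unigene284429 it was 3.24 and 3.57 times higher. The steps are not ranked by these changes, because the pairs were not chosen alike. Both unigenes of each other pair were chosen with their leaf and seed values known, whereas the 2 GGT unigenes are all that were listed.

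**Figure D2:**
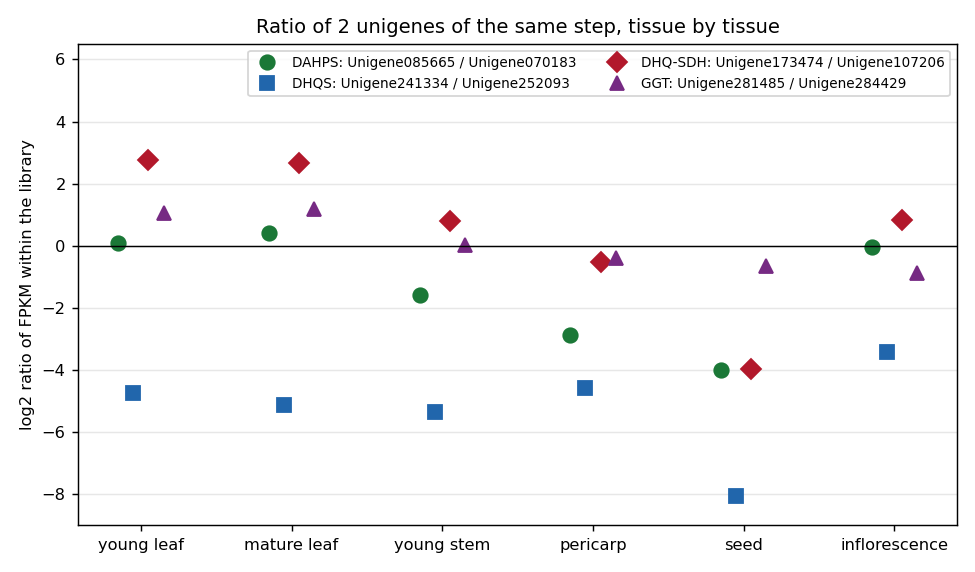
Log2 ratio of the FPKM of 2 unigenes of the same step within each library, for the 6 tissues other than mature stem, with 1 symbol per step. In seed the ratios for DAHPS, DHQS and DHQ-SDH are at their lowest, while the DHQS ratio lies below 0 in every tissue.

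The other tissues differed in their use of these copies too. In inflorescence the 2 DAHPS copies were nearly level, with Unigene085665 at 0.973 times Unigene070183, and Unigene173474 was at 1.77 times Unigene107206. Young stem had Unigene070183 at 2.99 times Unigene085665, but Unigene173474 still at 1.75 times Unigene107206. In pericarp, the other tissue of the fruit, Unigene107206 was 1.44 times Unigene173474, against 15.6 times in seed. Pericarp exceeded seed for Unigene173474 (23.87 against 5.29), Unigene281485 (25.21 against 6.16) and Unigene241334 (2.79 against 0.61), and lay below seed for the other 4. Young and mature leaf were alike for all 7: in the deposited FPKM young leaf was between 0.806 times mature leaf for Unigene281485 and 1.35 times for Unigene070183.

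Summed over all listed unigenes of a step, the leaf excess appeared in the later steps. DAHPS summed to 778.61 FPKM in seed, 545.39 in young leaf and 475.17 in mature leaf, so that young leaf was at 0.700 times and mature leaf at 0.610 times seed. DHQS summed to 170.73 in seed, 145.5 in young leaf and 145.56 in mature leaf, and under the median-ratio scaling its mature leaf sum lay just above that of seed. DHQ-SDH summed to 720.13 in young leaf, 586.87 in mature leaf and 224.07 in seed, 3.21-fold and 2.62-fold above seed. GGT summed to 322.28 in mature leaf, 267.84 in young leaf and 15.83 in seed, 20.4-fold and 16.9-fold above seed.

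Taken within each library, GGT expression was 0.0203 of DAHPS expression in seed, 0.285 in young stem and 0.317 in pericarp, then 0.491 in young leaf, 0.678 in mature leaf and 0.991 in inflorescence. Seed was thus more than 10 times below every other tissue but mature stem in the balance between the last and the first step. DHQ-SDH was 0.288 of DAHPS in seed and between 0.715 in pericarp and 1.32 in young leaf elsewhere. DHQS stayed between 0.219 of DAHPS in seed and 0.391 in pericarp.

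**Figure D3:**
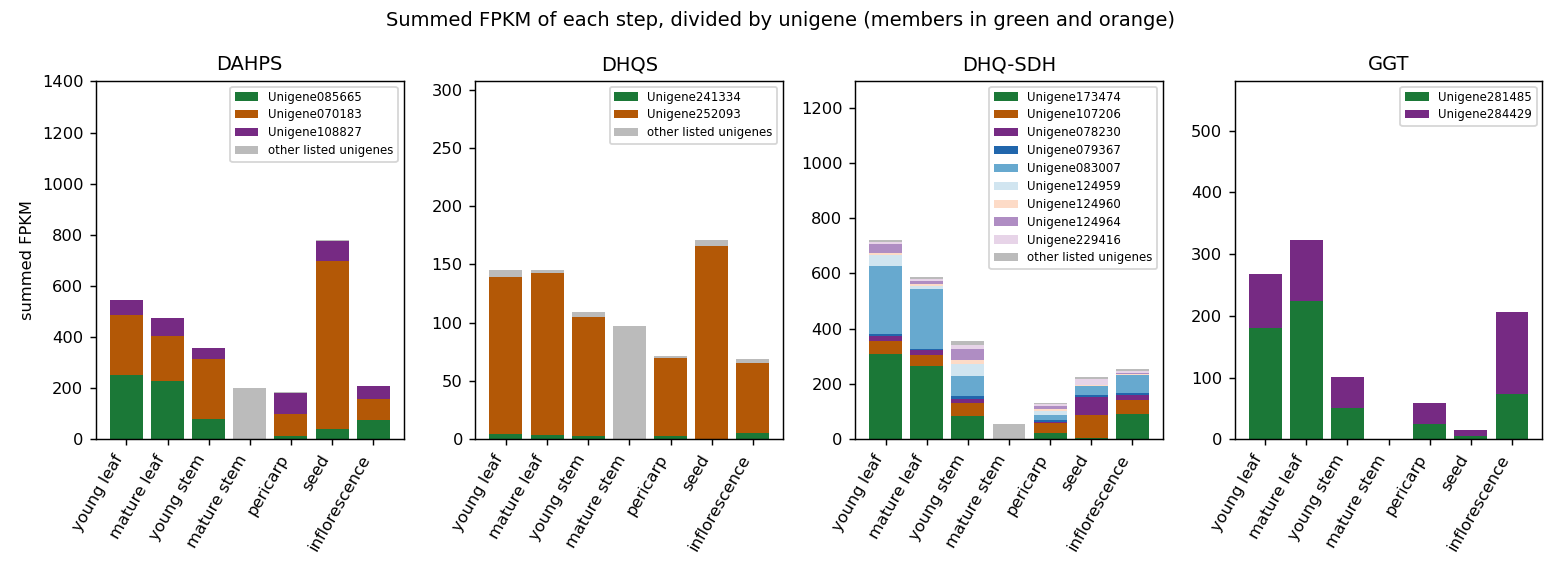
Summed FPKM of all listed unigenes of each step in the 7 tissues, 1 library per bar, with the 7 unigenes in green and orange, other unigenes that reach 10 FPKM outside mature stem in further colours and the rest in grey. DAHPS reaches its highest sum in seed, at 778.61, and DHQ-SDH and GGT theirs in leaf, at 720.13 and 322.28. For DHQS the log2 ratio of mature leaf to seed is -0.23 as plotted and 0.07 under median-ratio scaling.

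The 7 unigenes made up most of the first 2 steps and a smaller part of DHQ-SDH. The 2 DAHPS unigenes held 89.4% of the summed DAHPS expression in young leaf and 89.5% in seed, but 55.0% in pericarp. There another copy, Unigene108827, held 43.8%, with 80.3 FPKM in pericarp and 79.67 in seed, then 71.1 in mature leaf, 57.81 in young leaf, 52.49 in inflorescence and 43.39 in young stem. This copy showed little difference between leaf and seed. The 2 DHQ-SDH unigenes held 49.4% in young leaf and 39.1% in seed. Another DHQ-SDH unigene that was highest in the leaves, Unigene083007, had 248.51 in young leaf and 218.06 in mature leaf, then 71.61 in young stem, 64.84 in inflorescence, 30.34 in seed and 16.13 in pericarp. Unigene078230 was highest in seed, at 66.86, with between 5.03 in pericarp and 19.61 in young leaf elsewhere, and held 29.8% of the DHQ-SDH expression in seed. Unigene229416 was also highest in seed, at 24.06, against 14.62 in young stem and 7.49 in young leaf.

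A further group of DHQ-SDH unigenes was highest in young stem. Unigene124959 had 41.8 FPKM in young stem, 38.18 in young leaf, 15.49 in pericarp and 9.87 in mature leaf, and was listed at 0 in seed and inflorescence. Unigene124964 had 40.32 in young stem, 29.76 in young leaf and 12.61 in mature leaf and was listed at 0 in seed. Unigene124960 had 15.7 in young stem and 2.41 in seed, and Unigene079367 had 10.08 in young stem and 7.57 in seed. Unlike Unigene173474, Unigene124959 was 3.87 times higher in young than in mature leaf. The sequences of the unigenes were not used here, so whether copies of a step are separate genes, alleles or pieces of the same transcript was not tested. RSEM divides fragments between similar sequences, and values of near-identical copies are less certain.

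Over the whole list, 24 of the 37 unigenes reached an FPKM of 1 in young leaf, mature leaf or seed. Of these, 10 were at least 2-fold higher in both leaf libraries and 5 were at least 2-fold higher in seed, beside the 9.52% and 23.0% over all tested unigenes. Without the 7 unigenes chosen on these values, 17 were tested, of which 6 passed in the leaf direction (5 DHQ-SDH and the second GGT unigene), 4 in the seed direction (3 DHQ-SDH and 1 DAHPS) and 7 in neither. Some of these calls rest on low values. The DAHPS call had 2.24 FPKM in seed and was listed at 0 in every other tissue, and 1 DHQ-SDH seed call had 2.32 in seed. In the leaf direction, 1 DHQ-SDH call had 1.19 in young leaf and 1.28 in mature leaf. The median log2 difference over these 17 was 0.49 for young leaf minus seed and 0.16 for mature leaf minus seed, against -0.18 and -0.29 over all tested unigenes. Leaf calls were more common among abundant unigenes: of 17736 unigenes that reached an FPKM of 10 in 1 of the 3 libraries, 22.3% passed in the leaf direction and 21.0% in the seed direction.

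**Figure D4:**
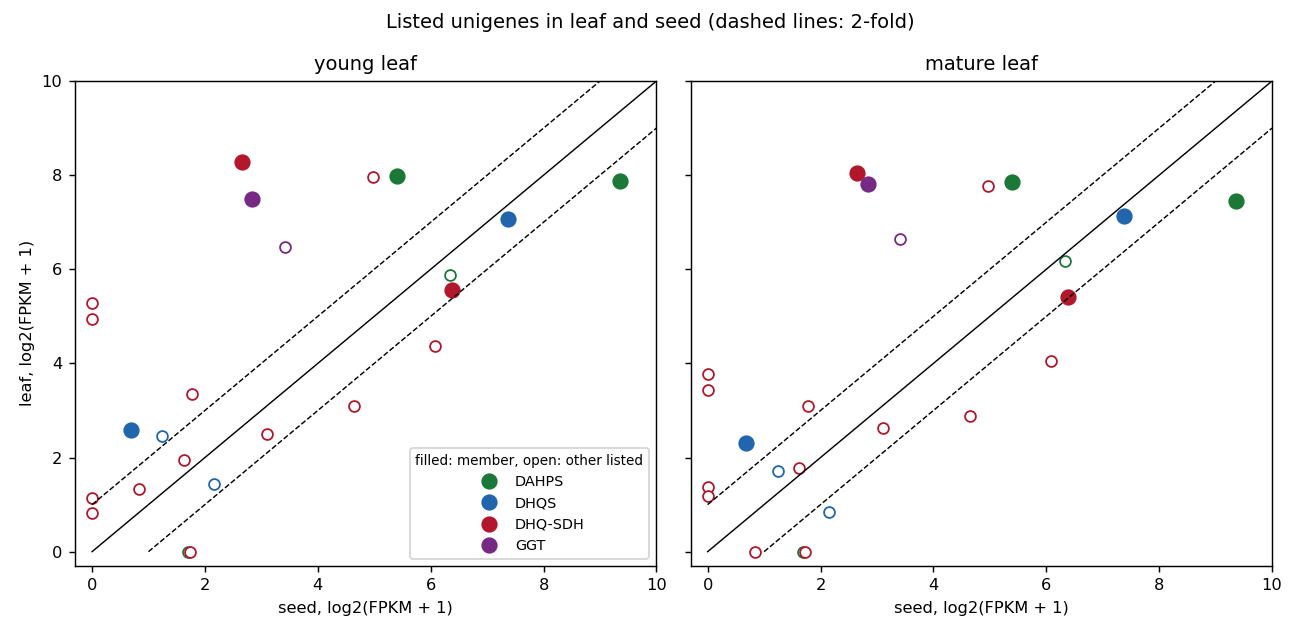
Log2(FPKM + 1) in leaf against seed for the 24 listed unigenes that reached an FPKM of 1 in 1 of the 3 libraries, with young leaf in the left and mature leaf in the right panel. Colours mark the enzyme, filled points the 7 unigenes and dashed lines a 2-fold difference. A total of 10 unigenes lie past the upper dashed line in both panels, and 5 lie past the lower one in both.

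Across the 6 tissues, DHQ-SDH Unigene173474 and GGT Unigene281485 had Pearson's r = 0.99 on the log2(FPKM + 1) scale, and each had r = 0.86 or above with DHQS Unigene241334 (0.86 and 0.87, or 0.64 and 0.61 on FPKM without the logarithm). DAHPS Unigene085665 had r = 0.80 with Unigene173474 and 0.78 with Unigene281485, but 0.48 with Unigene241334. With DHQS Unigene252093, which was not called higher in leaf, it had r = 0.49. DAHPS Unigene070183 had r = 0.89 with DHQS Unigene252093. With DHQ-SDH Unigene107206 it had r = 0.76 but Spearman's rho = 0.37, and Unigene252093 with Unigene107206 had 0.50 and 0.20. Within DAHPS the copies had r = 0.18 (-0.16 on FPKM without the logarithm), within DHQS -0.48 and within DHQ-SDH -0.55 (rho = -0.31). These coefficients rest on 6 tissues with 1 library each and are descriptions. In the deposited FPKM, seed holds the highest or the lowest value of 6 of the 7 unigenes. Over the 5 tissues left without seed, an alternative chosen after seeing the data, r was 0.98 for Unigene173474 with Unigene281485, 0.99 and 0.95 for Unigene085665 with these 2, and 0.58 and 0.61 for Unigene241334 with them. Without seed r was 0.89 for Unigene070183 with Unigene252093, 0.21 for Unigene070183 with Unigene107206 and 0.04 for Unigene252093 with Unigene107206. Within a step it went to 0.66 for DAHPS, 0.01 for DHQS and 0.48 for DHQ-SDH, so the negative values within DHQS and DHQ-SDH were not seen without the seed library. Unigene252093 had r = 0.78, 0.80 and 0.77 without seed with Unigene085665, Unigene173474 and Unigene281485. Unigene070183 had 0.66, 0.64 and 0.52 with the same unigenes and -0.19 with Unigene241334. For Unigene107206 r lay between 0.36 and 0.57 with the unigenes higher in leaf. The separation of leaf unigenes from the others over 6 tissues, incomplete for Unigene085665, thus rested in part on seed.

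With mature stem included, every one of the 21 pairs had r above 0, because all 7 unigenes are listed at or near 0 there. The 9 pairs below 0 over 6 tissues turned positive, and the DHQ-SDH copies Unigene173474 and Unigene107206 went from -0.55 to 0.69.

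**Figure D5:**
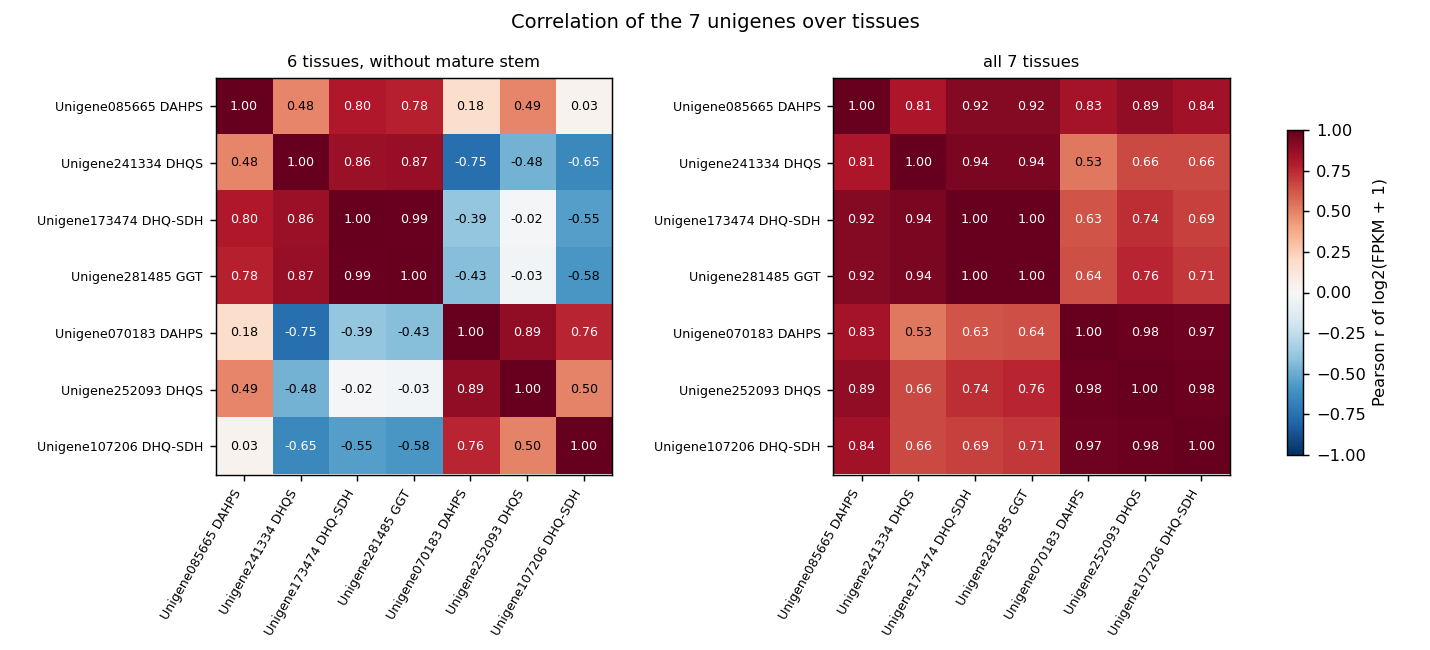
Pearson's r of log2(FPKM + 1) between the 7 unigenes, over 6 tissues without mature stem (left) and over all 7 tissues (right). On the left, the 4 unigenes at least 2-fold higher in leaf than in seed have r between 0.48 and 0.99 with each other and at most 0.49 with the other 3. The leaf and seed values that define the 4 are among the points behind r. Without seed, Unigene252093 has r = 0.78, 0.80 and 0.77 with Unigene085665, Unigene173474 and Unigene281485, and 0.01 with Unigene241334. On the right all values are above 0.

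For each of the 7, the closest patterns were sought among 321 annotated unigenes that reached an FPKM of 5 in 1 of the 6 tissues. These came from the triterpenoid, iridoid, gallotannin and cytochrome P450 (CYP) lists. The ranking by r includes the leaf and seed values with which the 7 were chosen, so it is a description. Unigene083007, a DHQ-SDH, was closest to DAHPS Unigene085665 (r = 0.99), followed by Unigene035769, annotated as the iridoid enzyme 8-hydroxygeraniol oxidoreductase (8HGO, r = 0.96). Unigene173474 and Unigene281485 were each closest to the other by r, which is 1 pair and not 2 separate matches. By Spearman's rho, Unigene281485 took place 2 for Unigene173474, and Unigene173474 took place 7 for Unigene281485. The closest unigenes of the other 5 kept first place by rho. By r, the second places of Unigene173474 and Unigene281485 went to iridoid unigenes. These were the 7-deoxyloganetic acid glucosyltransferase Unigene274540 (r = 0.98) and the geranyl diphosphate synthase Unigene116310 (r = 0.98). DHQS Unigene241334 was closest to CYP Unigene105521 (r = 0.98) and to the second GGT, Unigene284429 (r = 0.97).

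The other 3 unigenes had other neighbours. CYP Unigene288422, with 337.45 FPKM in seed and at most 22.41 elsewhere, was closest to DAHPS Unigene070183 (r = 0.93), followed by DHQS Unigene252093 (r = 0.89). CYP Unigene081475 was closest to Unigene252093 (r = 0.97), with Unigene070183 second. Unigene081475 had 49.19 FPKM in seed and 1.48 in inflorescence, against 165.3 and 59.94 for Unigene252093. For DHQ-SDH Unigene107206 the closest were 8HGO Unigene222835 (r = 0.97) and DHQ-SDH Unigene078230 (r = 0.96). Unigene222835 had 42.05 FPKM in seed and 1.18 in pericarp, against 82.35 and 34.27 for Unigene107206. Pearson's r takes no account of the size of a change, so a high r does not mean similar folds between tissues. Of 44941 unigenes that reached an FPKM of 5, between 47 (0.105%, for Unigene252093) and 507 (1.13%, for Unigene281485) had r = 0.95 or above.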

How the data were processed

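Trimmed paired-end reads of each tissue were mapped by the authors with Bowtie 2.0 to their own *de novo* assembly, and RSEM gave the deposited FPKM values. The submitters' processing notes name Trimmomatic and RSEM without versions. FPKM is not a count, so no count test was run, and 1 library per tissue allows no test of a difference. The tissue tables and the table of the whole series held equal values.

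Enzyme names and list membership came from the study's lists of annotated unigenes (37 gallotannin, 83 iridoid, 182 triterpenoid, 262 CYP), all of which matched. The members and lists were chosen with earlier results of these data known. Differences used log2(FPKM + 1), with a pseudocount of 1, a fold of 2 in both leaf libraries as a call and an FPKM of at least 1 in young leaf, mature leaf or seed as a filter. Further listed unigenes were named at an FPKM of at least 10 in a tissue, and for each of the 7 unigenes the 2 annotated unigenes of highest r. Relative depth was read from unigenes above 0 in exactly 2 libraries, as the most frequent ratio. In mature stem 1.18% of 1191 unigenes shared the most frequent ratio, and its depth was not read. Metabolite levels were not used. The call rule was tried on simulated unigenes of at least 10 FPKM, with little noise and planted changes well past 2-fold. Low unigenes, those near the limit and variation between real libraries were not covered by it. Alternatives covered fold, pseudocount, filter, scaling (TPM, median ratio), coefficient, mature stem and, chosen after seeing the data, seed. Python 3.11.15, numpy 2.4.6, pandas 2.3.3 and matplotlib 3.10.9 were used.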

Additional observations from a re-analysis of the deposited data

How the results depend on the processing

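No paired analysis was possible because there is 1 library per tissue, and none could be left out as a replicate. The number of the 7 unigenes higher in leaf was 4 at each pseudocount and scaling tried and at a fold of 1.5, and 3 at a fold of 4, without Unigene241334, while those higher in seed numbered 2 at a fold of 1.5 and 0 at a fold of 4. Of the listed unigenes, 0 were higher in seed at a fold of 4, and 3 at an FPKM of at least 5. The share of all unigenes higher in leaf was 14.8% at a fold of 1.5, 2.54% at a fold of 4, 15.4% with a pseudocount of 0.1 and 19.4% at an FPKM of at least 5, and that higher in seed was 5.02% at a fold of 4. With a pseudocount of 0.1 the log2 differences of Unigene241334 were 2.84 (young leaf) and 2.52 (mature leaf), against 1.89 and 1.63, which shows how far this low unigene depends on the pseudocount. Counting only unigenes of at least 10 FPKM outside mature stem, Unigene252093 held 100% of DHQS, since no other unigene of that step remained.

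With all 7 tissues, 4 of 7 closest annotated unigenes stayed in first place. Unigene288422 fell to place 52 for Unigene070183, Unigene081475 to place 88 for Unigene252093 and Unigene222835 to place 86 for Unigene107206. In addition, 4 correlations at or beyond -0.5 turned positive: Unigene241334 with Unigene070183 (0.53) and with Unigene107206 (0.66), and Unigene107206 with Unigene173474 (0.69) and with Unigene281485 (0.71). The summed DHQS of mature leaf over seed went from -0.23 to 0.07 on the log2 scale under the median-ratio scaling. Without seed as well as mature stem, an alternative chosen after seeing the data, 20 of the 21 pairs had r above 0, and r went to 0.53 for Unigene241334 with Unigene107206, 0.48 for Unigene173474 with Unigene107206 and 0.36 for Unigene107206 with Unigene281485.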

Other observations

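Of the 37 listed unigenes, 10 were near-exclusive to mature stem, each below 1% of its mature stem FPKM in every other tissue: 4 of 9 DAHPS, 4 of 9 DHQS and 2 of 17 DHQ-SDH, and neither GGT unigene. Over all 304371 unigenes 60207 (19.8%) were near-exclusive to mature stem by the same measure, against 10 of the 37. Of the unigenes above 0 in mature stem they made up 85.9% over all and 66.7% of the listed ones, so nothing particular to these enzymes is read from the count. The DAHPS unigenes Unigene230779 and Unigene240906 had 111.82 and 81.63 FPKM in mature stem and at most 0.17 elsewhere. DHQS Unigene224543 had 86.47 in mature stem and 0.25 in pericarp, and the DHQ-SDH unigenes Unigene243737 and Unigene243738 had 31.64 and 22.97. These 5 exceeded 10 FPKM, and the remaining 5 lay between 1.96 and 5.25. GGT summed to 0.11 FPKM in mature stem, against 202.45 for DAHPS and 96.82 for DHQS. The sequences were not used here, and the source of these unigenes was not tested.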
